A study of Homo sapiens with 8 samples.

Results

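The genes of the cytosolic large (60S) ribosomal subunit proteins were followed in RKO cells, a human colon carcinoma cell line, after knockdown of A20. The family was taken by gene name as the 45 RPL and RPLP genes that encode the subunit's proteins, without their pseudogenes and paralogs, out of 57992 genes counted. All 45 passed the filter on low counts. The family was chosen by its log2 fold changes between A20 siRNA and control siRNA, which were known beforehand, so the fold changes and counts of calls below describe the members and are not a test of the family.

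RNAseq covered 8 samples. In 4 the RKO cells carried a control siRNA, and in the other 4 an siRNA against A20, the product of TNFAIP3, a ubiquitin-editing enzyme that restrains NFkB signaling. All 8, the controls included, had received 50 ng/mL recombinant human wnt3a, a ligand of canonical wnt-signaling, for 24 hours. The labels do not say whether the samples of a group came from separate cultures, so the spread between them may be technical. Total counts were between 23912317 and 30022486 with control siRNA and between 21226451 and 34194273 with A20 siRNA. TNFAIP3 was at 5.47 ± 0.388 CPM (counts scaled by library size) with control siRNA and at 3.33 ± 0.215 CPM with A20 siRNA (SD, n = 4), with no overlap and a log2 fold change of -0.71 ± 0.095 (SE), at an adjusted p of 0.00258 by edgeR's quasi-likelihood test. Of 12 colon epithelial markers, 4 were at 1 CPM or more (EPCAM, KRT8, KRT18 and CDX2), while KRT19, KRT20, CDH1, CDX1, CEACAM5 and MUC2 were at 0 in all samples. The sum of the 12 was 140 to 152 CPM with control siRNA and 138 to 146 CPM with A20 siRNA. Of 13 markers of blood, endothelial and stromal cells only ACTA2 reached 1 CPM, PTPRC, CD3E, COL3A1 and DCN were at 0, and the sum was 1.17 to 1.66 CPM with control siRNA and 1.58 to 1.88 CPM with A20 siRNA.

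The large subunit joins amino acids. Its RNA forms the peptidyl transferase center, and its proteins hold that RNA in shape, line the tunnel through which the new chain leaves, carry the stalk that recruits elongation factors and form bridges to the small (40S) subunit. Every ribosome holds the proteins in fixed proportions, and their genes are among the most highly expressed in dividing cells. Most of their mRNAs start with a C followed by a run of pyrimidines, the 5′ terminal oligopyrimidine (TOP) tract, through which translation of these mRNAs is tied to growth signals. A pair of the proteins, RPL5 and RPL11, also bind 5S rRNA outside the ribosome and in that form can restrain MDM2.

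The starts of the members' transcripts are shown for the genes on which the comparison turns. RefSeq promoters on GRCh38.p14 were matched for 38 of the 45 members, and none was matched for RPL5, RPL7, RPL8, RPL23, RPL23A, RPL30 and RPL37. Each line gives 15 bases before and 15 bases from the annotated start on the gene's own strand, 5′ to 3′, and the capitals mark the longest run of C or T that reaches to within 2 bases of the start. The first 6 are the members with an adjusted p under 0.05 that had an entry.
RPL34 (chr4:108620561-108620590, plus strand): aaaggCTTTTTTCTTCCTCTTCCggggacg
RPL37A (chr2:216498829-216498858, plus strand): gcaccgcgTCTCTTCCTTTCTgggctcgga
RPL31 (chr2:101002274-101002303, plus strand): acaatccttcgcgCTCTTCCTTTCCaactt
RPL11 (chr1:23691791-23691820, plus strand): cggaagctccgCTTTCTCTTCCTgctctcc
RPL13A (chr19:49487593-49487622, plus strand): cgacaaaaCCTCCTCCTTTTCCaagcggct
RPL18 (chr19:48619164-48619193, minus strand): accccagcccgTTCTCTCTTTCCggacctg
RPL41 and RPL38, among the members with the lowest fold changes, and RPL6, RPL14, RPLP1, RPL26 and RPL9, the 5 members with the fold changes nearest 0, follow for comparison.
RPL41 (chr12:56116618-56116647, plus strand): cggaacttcgCCTTTCTCTCggccttagcg
RPL38 (chr17:74203663-74203692, plus strand): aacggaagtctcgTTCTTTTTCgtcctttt
RPL14 (chr3:40457324-40457353, plus strand): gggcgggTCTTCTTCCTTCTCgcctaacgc
RPLP1 (chr15:69452803-69452832, plus strand): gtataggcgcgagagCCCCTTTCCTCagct
RPL26 (chr17:8383179-8383208, minus strand): aagcagcgtgtagTTCTCTTCCCTTTTgcg
RPL9 (chr4:39458908-39458937, minus strand): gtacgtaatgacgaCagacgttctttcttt
RPL6 (chr12:112411428-112411457, minus strand): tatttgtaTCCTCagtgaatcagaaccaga

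A run of at least 7 pyrimidines stood at the start of 29 of the 38 members with an entry (76.3%), against 15.4% of the 27305 genes in the promoter table and 22 of 25 genes of small subunit proteins (88.0%). The members' runs had between 1 and 25 bases, the longest in RPL7A. Where a gene had more than 1 entry, the one with the longest run was used. The run was present in 6 of 6 members with an adjusted p under 0.05 and in 23 of the other 32. Of the 5 members nearest 0 it was present in RPL14, RPLP1 and RPL26 and not in RPL9 and RPL6. RPL17, not shown above and with a lower fold change (-0.29) than RPL38 (-0.20), had a run of only 3 bases. RPL36A, also not shown and the one member above 0, had a run of 13. In the 300 bases of promoter, searched on both strands, CCGGAAG (a core of ETS sites) was found in 34.2% of the members' genes and 12.2% of all genes, AAGATGGC (a core of YY1 sites) in 10.5% and 3.52% and TATAAA (the TATA box) in 7.89% and 14.0%. These are matches of letters and not measured sites.

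With A20 siRNA, 44 of the 45 members had a log2 fold change below 0, against 48.4% of the 13412 genes tested. Their median was -0.12 and the range -0.33 to 0.13, beside a median of 0.00 over all genes. At an adjusted p under 0.05, 8 members were lower and 0 were higher, where 0.611% of all tested genes were called lower and 0.634% higher. The 8 were RPL23A, RPL34, RPL37A, RPL31, RPL7, RPL11, RPL13A and RPL18. At an unadjusted p under 0.05 edgeR gave 39 members lower and 0 higher, where 7.37% of all tested genes were lower and 8.81% higher. After adjustment DESeq2 called 10 members lower and 0 higher (all genes 0.91% and 0.619%), and limma-voom 8 and 0 (0.626% and 0.604%). The members called by limma-voom were the same as those called by edgeR. DESeq2 did not call RPL34 and RPL37A, and it called RPL4, RPL10A, RPL27A and RPL29, which edgeR did not. The groups did not overlap in 14 members, all lower with A20 siRNA, where 3.9% of all tested genes were lower without overlap and 3.71% higher. These 14 were the 8 called genes with RPL38, RPL36, RPL35A, RPL39, RPL23 and RPL4. In bulk RNA, less mRNA per cell and a different mixture of cells cannot be told apart.

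**Figure D1:**
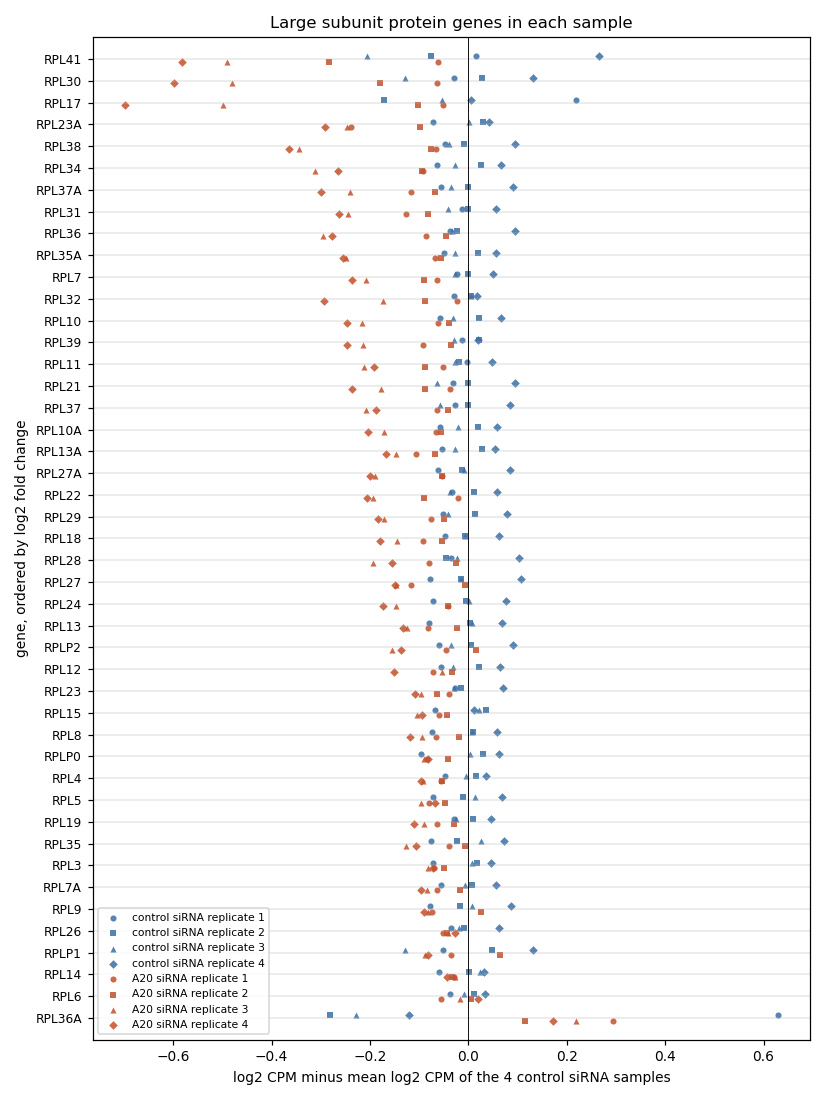
Each row is one of the 45 large subunit protein genes, and each point one sample, as log2 CPM minus the mean log2 CPM of the 4 control siRNA samples. Genes are ordered from the lowest log2 fold change (RPL41, -0.33) to the highest (RPL36A, 0.13), and A20 siRNA replicates 3 and 4 lie farthest to the left in most rows.

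Among proteins of the exit tunnel and its rim, where the new chain leaves and targeting factors dock, 2 of 9 passed the test. RPL23A (chr17:28719985-28724359), a docking site for the signal recognition particle, was at 164, 176, 172 and 177 CPM with control siRNA and at 146, 161, 145 and 141 CPM with A20 siRNA. Every A20 siRNA sample lay below every control. RPL23A fell by 13.9%, with a log2 fold change of -0.22 ± 0.034 (SE), the largest fall among the 8 called genes. RPL31 (chr2:101002229-101024032), also at the tunnel rim, was at 438, 442, 430 and 460 CPM with control siRNA and at 405, 418, 374 and 368 CPM with A20 siRNA, and fell by 0.18 ± 0.034 on the log2 scale without overlap. The other tunnel proteins had log2 fold changes of -0.29 (RPL17), -0.14 (RPL39), -0.12 (RPL22), -0.07 (RPL4, RPL19 and RPL35) and -0.04 (RPL26), and did not pass. RPL4, which with RPL17 lines the inside of the tunnel, was at 2078, 2171, 2139 and 2202 CPM with control siRNA and at 2065, 2069, 2015 and 2009 CPM with A20 siRNA, so its groups did not overlap but lay close together.

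Of 4 proteins on the face towards the small subunit 0 passed. The lowest fold changes of the family lay here, but in genes with a wide spread. RPL41, which forms a bridge between the subunits and is the shortest member at 75 coding bases, was at 88.2, 82.8, 75.7 and 105 CPM with control siRNA and at 83.6, 71.6, 62.1 and 58.3 CPM with A20 siRNA. A20 siRNA replicate 1 was above 2 controls, and the log2 fold change of -0.33 ± 0.088 did not pass. RPL30, a further bridge protein, was at 338, 352, 316 and 378 CPM with control siRNA and at 330, 305, 247 and 228 CPM with A20 siRNA. Its log2 fold change was -0.31 ± 0.078 and its groups overlapped through A20 siRNA replicate 1. RPL24 (-0.10) and RPL23 (-0.08) were nearer 0.

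Of the 5S rRNA binding pair, RPL11 passed and RPL5 did not. RPL11 (chr1:23691742-23696835) was at 711, 703, 698 and 736 CPM with control siRNA and at 687, 670, 615 and 624 CPM with A20 siRNA, and fell by 0.13 ± 0.030 on the log2 scale without overlap. RPL5 was at 1026, 1071, 1089 and 1132 CPM with control siRNA and at 1021, 1044, 1009 and 1029 CPM with A20 siRNA, and its log2 fold change was -0.07 ± 0.025. A20 siRNA replicates 2 and 4 of RPL5 lay above its lowest control. The difference between the fold changes of RPL11 and RPL5 was not tested.

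None of the 4 genes of the stalk and its base passed. RPLP0, the scaffold of the stalk, was at 1519, 1658, 1628 and 1697 CPM with control siRNA and at 1533, 1578, 1525 and 1535 CPM with A20 siRNA (log2 fold change -0.08 ± 0.027). Its acidic partner RPLP1 was at 862, 924, 817 and 979 CPM with control siRNA and at 872, 934, 841 and 844 CPM with A20 siRNA (-0.04 ± 0.042). RPLP2 was at 587, 615, 597 and 652 CPM with control siRNA and at 593, 619, 550 and 557 CPM with A20 siRNA (-0.08 ± 0.035). The groups overlapped in all 3, and RPL12, at the stalk's base, had -0.08. The direction of RPLP1 was not stable: it was 0.00 with a correction for coding length and 0.01 without control siRNA replicate 4.

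None of the 5 genes of the catalytic core and the tRNA path passed either. The log2 fold changes were -0.14 for RPL10 and -0.12 for RPL10A, which lie along the path of the tRNAs, and -0.07 for RPL8 and for RPL3, which lie close to the peptidyl transferase center. RPL36A, at the tRNA exit site, was the one member above 0, at 4.19, 2.23, 2.31 and 2.50 CPM with control siRNA and at 3.32, 2.94, 3.15 and 3.06 CPM with A20 siRNA (0.13 ± 0.164). Its first control was the highest sample of the 8, and without it RPL36A was called higher, at a log2 fold change of 0.41.

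The remaining 21 members, spread over the surface and the interior of the rRNA, had a median of -0.12 and a range of -0.20 to -0.01, and 5 passed. RPL37A (chr2:216498825-216579180), a small zinc-binding protein, was at 903, 938, 916 and 999 CPM with control siRNA and at 866, 895, 794 and 762 CPM with A20 siRNA. It fell by 0.18 ± 0.040 on the log2 scale, and the groups did not overlap. RPL34 (chr4:108620569-108630412) was at 258, 275, 265 and 283 CPM with control siRNA and at 253, 253, 218 and 225 CPM with A20 siRNA, and fell by 0.19 ± 0.041. DESeq2 called neither RPL37A nor RPL34. RPL7 (chr8:73290242-73295789) was at 1392, 1412, 1388 and 1463 CPM with control siRNA and at 1353, 1327, 1223 and 1200 CPM with A20 siRNA, and fell by 0.15 ± 0.031. In all 3 genes A20 siRNA replicates 1 and 2 lay nearer the lowest control than replicates 3 and 4 did. RPL13A (chr19:49487510-49493057), known also for a role outside the ribosome in silencing inflammatory mRNAs, was at 2024, 2142, 2061 and 2182 CPM with control siRNA and at 1951, 2004, 1897 and 1872 CPM with A20 siRNA, and fell by 0.12 ± 0.025. RPL18 (chr19:48615328-48619184) was at 683, 703, 703 and 737 CPM with control siRNA and at 663, 680, 638 and 623 CPM with A20 siRNA, and fell by 7.79%, the smallest fall among the 8.

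RPL38, known for its part in translating selected developmental mRNAs, did not pass although its groups did not overlap. It was at 363, 373, 365 and 401 CPM with control siRNA and at 359, 356, 295 and 291 CPM with A20 siRNA (-0.20 ± 0.053). At the other end, RPL6 was at 726, 751, 741 and 763 CPM with control siRNA and at 717, 748, 736 and 756 CPM with A20 siRNA (-0.01 ± 0.023). RPL14 was at 776, 810, 823 and 828 CPM with control siRNA and at 793, 790, 794 and 786 CPM with A20 siRNA (-0.03 ± 0.022). RPL26, of the tunnel rim and known also for binding p53 mRNA, was at 221, 226, 224 and 237 CPM and at 219, 220, 220 and 223 CPM in the same order (-0.04 ± 0.024). RPL9 was at 624, 651, 661 and 699 CPM with control siRNA and at 626, 670, 622 and 619 CPM with A20 siRNA (-0.05 ± 0.031). In all 4 genes the groups overlapped. The other members outside the groups above, none past the test, had log2 fold changes of -0.17 (RPL36), -0.15 (RPL35A), -0.14 (RPL32), -0.13 (RPL21), -0.12 (RPL27A, RPL29 and RPL37), -0.11 (RPL27 and RPL28), -0.09 (RPL13), -0.08 (RPL15) and -0.07 (RPL7A).

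The difference was carried unequally by the libraries. The 45 genes together took 3.57%, 3.72%, 3.65% and 3.83% of the counts with control siRNA and 3.54%, 3.60%, 3.39% and 3.35% with A20 siRNA, or 3.69% ± 0.11 and 3.47% ± 0.119 (SD, n = 4). The groups overlapped between A20 siRNA replicate 2 and control siRNA replicate 1, and the Wilson 95% intervals of these shares were at most 0.015 percentage points wide (counting error only). The median member lay -0.06, -0.05, -0.15 and -0.17 from the control mean on the log2 scale in A20 siRNA replicates 1 to 4, and -0.05, 0.00, -0.03 and 0.06 from it in the controls. A20 siRNA replicate 4 was the lowest of the 8 samples in 29 members and replicate 3 in 10, while control siRNA replicate 4 was the highest in 41. A20 siRNA replicates 3 and 4 lay below every control in 39 and 38 members, and replicates 1 and 2 in 27 and 20. Over all tested genes A20 siRNA replicates 3 and 4 were the most alike pair within a group, at a chi-square per degree of freedom of 1.31. The other pairs within a group had 2.04 to 3.69, above counting error. Whether A20 siRNA replicates 3 and 4 were separate cultures is not known. With both A20 siRNA replicates 3 and 4 left out, which leaves 6 samples, 43 members were still below 0, the median was -0.06 and 0 members were called (of all genes, 0.0578% lower and 0.00723% higher). With control siRNA replicate 1 left out 36 members were called lower and 1, RPL36A, higher, beside 3.18% and 4.19% of all genes. With A20 siRNA replicate 1 left out 21 were called lower (1.12% of all genes), and with replicate 2 left out 22 (1.14%). With any of the other samples left out singly (control siRNA replicates 2, 3 and 4, A20 siRNA replicates 3 and 4) 1 or 2 were called lower, beside 0.0443% to 0.192% of all genes. RPL23A passed in 8 of 8 such fits, RPL31 in 4 and the other 6 called genes in 3 each.

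Within the family the fold change rose with coding length and with mean CPM. The 15 members with under 400 coding bases had a median log2 fold change of -0.15, the 16 with 400 to 600 bases -0.11 and the 14 with 600 bases or more -0.08. Spearman's rho between coding length and fold change was 0.46 over the 45 genes, which share their libraries. It was 0.06 with the length of the whole reference mRNA, 0.15 with its GC content and 0.49 with the mean CPM. The order by coding length also held in the whole table, with a rho of 0.33 over 11311 genes with a coding length. All tested genes with under 300 coding bases had a median of -0.06, where the 5 members of that size had -0.18. Those with 300 to 600 bases had -0.04 against -0.12 for 26 members, and those with 600 to 1200 bases had -0.02 against -0.08 for 12 members. The order by CPM ran the other way over all tested genes. Those of 300 CPM or more had a median of -0.02, and 66.8% of them were below 0. Those under 10 CPM had a median of 0.04, and 42% of them were below 0.

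**Figure D2:**
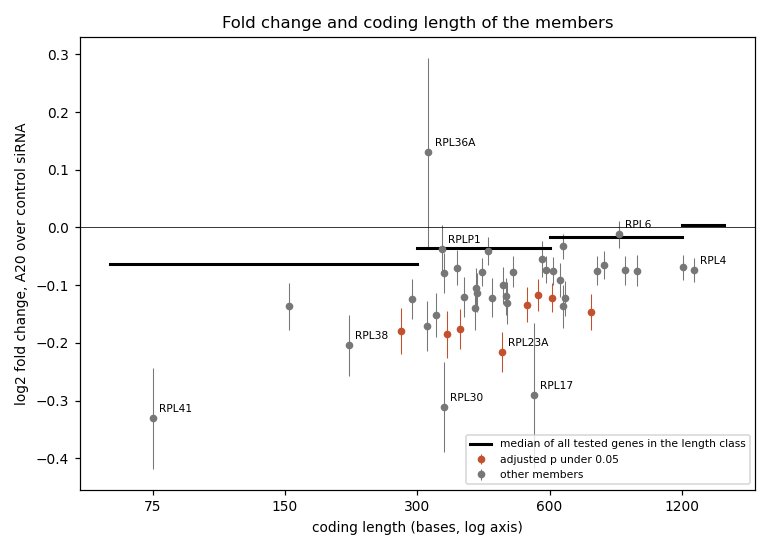
Log2 fold change with its standard error for each of the 45 members against coding length on a log axis, with genes at an adjusted p under 0.05 in orange. The black bars are the medians of all tested genes in the same length class (-0.06, -0.04, -0.02 and 0.01 from the shortest class to the longest), and most members lie below them.

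The libraries themselves differed in their trend with coding length. Spearman's rho between coding length and a gene's deviation from its mean over the 8 samples was 0.16, -0.28, -0.23 and -0.31 in control siRNA replicates 1 to 4, and 0.17, -0.02, 0.23 and 0.28 in A20 siRNA replicates 1 to 4. A20 siRNA replicates 3 and 4, lowest for the ribosomal genes, had the highest values, and control siRNA replicate 4 the lowest. Control siRNA replicate 1 and A20 siRNA replicate 1, nearly equal in this trend, were also close in the median of the members, at -0.05 and -0.06. A20 siRNA replicate 2, with a lower trend than both, was likewise at -0.05. How far the trend accounts for the members' fold changes was not tested. In A20 siRNA replicates 3 and 4 the short members lay -0.24 and -0.26 from the control mean and the long ones -0.10 and -0.10. When the trend with coding length was removed from each library, a correction chosen after the data were seen, the members' median was -0.08, and the rho with coding length was 0.24. In that fit 14 members were called lower and 0 higher, beside 1.07% and 0.611% of all genes. Corrected for the length of the whole mRNA 24 were called lower (1.94% of all genes), and corrected for length with GC content 25 (1.89%). The members' median in these fits was -0.112 and -0.104, beside -0.117 without a correction.

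**Figure D3:**
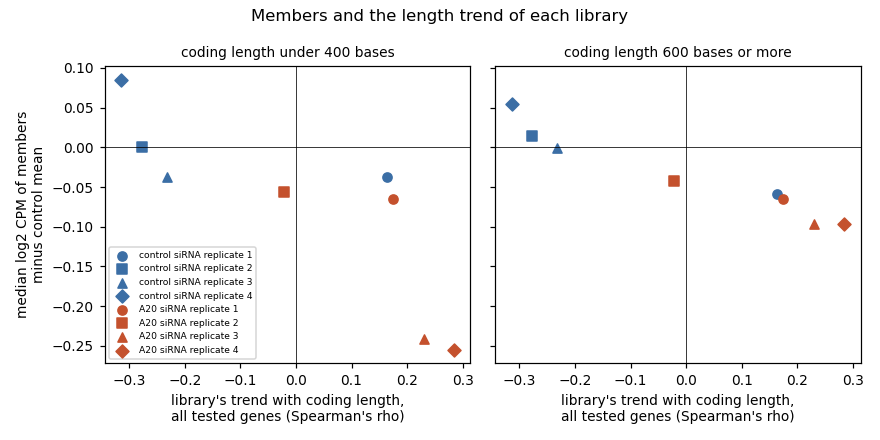
For each of the 8 libraries, the x axis gives the trend of all tested genes with coding length (Spearman's rho) and the y axis the median log2 CPM of the members minus the control mean, for the 15 members with under 400 coding bases (left) and the 14 with 600 or more (right). Among the long members, libraries with a higher trend lie lower or level, while among the short members control siRNA replicate 1 lies above A20 siRNA replicate 2 despite its higher trend. A20 siRNA replicates 3 and 4 lie lowest among the short members, at -0.24 and -0.26.

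The genes that build the subunit lay around 0. Of 54 assembly factors, which process the rRNA and escort the pre-60S particle to the cytoplasm, 0 were called in either direction by edgeR, DESeq2 or limma-voom, and edgeR gave 5 lower and 2 higher at an unadjusted p under 0.05, where 7.37% of all genes were lower and 8.81% higher. Their median was 0.00 and 28 were below 0 (51.9%, against 48.4% of all tested genes). The range was from -0.10 (WDR18) to 0.19 (MDN1, the ATPase that strips assembly factors from the particle). With the correction for coding length the median was -0.017 for the assembly factors and -0.079 for the members. How far coding length accounts for the difference between these lists was not tested. The 32 genes of small subunit proteins lay close to the members, with a median of -0.12 and 31 below 0 (48.4% over all tested genes). Of the 32, 8 were called lower (25.0%, against 0.611% of all tested genes), among them RPS12, RPS14 and RPS29. Their fold changes also followed coding length (rho 0.57).

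Of 8 paralogs kept apart from the family, 5 were tested and 0 were called by edgeR. At an unadjusted p under 0.05 edgeR gave 3 lower and 1 higher, where 7.37% of all genes were lower and 8.81% higher. DESeq2 called RPL36AL lower, as it did 0.91% of all genes. RPL22L1 had a log2 fold change of -0.15, RPL36AL -0.11 and RPL26L1 -0.08. RPL7L1, a factor of 60S assembly, had 0.06, with all A20 siRNA samples above all controls. The tissue-restricted paralogs RPL3L, RPL10L and RPL39L had between 0 and 4 reads per sample.

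Levels were compared between members per kilobase of the reference mRNA and, since some reference mRNAs have long 3′ ends (7573 bases in RPL37 against 291 coding bases), per kilobase of coding sequence. Per kilobase of mRNA with control siRNA, RPL8 was highest at 2768 ± 103 CPM (SD, n = 4), followed by RPL7A at 2199, RPL12 at 1978, RPL13A at 1865 and RPL35 at 1798, with a median over members of 682. RPL36A at 3.69 and RPL17 at 7.86 were lowest, under RPL22 at 66.0, RPL37 at 80.5 and RPL39 at 108. Neighbours in this order overlapped in their range over samples in 29 of 44 pairs. Per kilobase of coding sequence RPL8 was again highest, at 3841 CPM or 2.59 times the median of 1484, then RPL13A at 3452, RPL37A at 3402, RPLP1 at 2618 and RPL12 at 2533. The lowest were RPL17 at 8.74, RPL36A at 8.83, RPL39 at 276, RPL22 at 354 and RPL23A at 368, and 32 of 44 neighbouring pairs overlapped. With either length the 10 highest members were the same in both groups. Levels were also divided by the number of 75-base windows with a single match in the genome. RPL9 was then first at 7085 CPM per kilobase of window starts and RPL8 ninth at 2997, and RPL21, with no such window, had no value. Of the 10 highest members per mRNA kilobase, 7 were shared with this order and 6 with the order per coding kilobase. Per kilobase of coding sequence, RPL22L1 was at 928 CPM against 354 for RPL22, and RPL36AL at 500 CPM against 8.83 for RPL36A. The order was the other way for RPL26L1, at 78.4 CPM against 522 for RPL26, and for RPL7L1, at 401 CPM against 1900 for RPL7. These levels were not corrected for uniqueness. Windows with a second match made up 30.6% in RPL22 against 0.55% in RPL22L1, and 47.6% in RPL36A against 6.81% in RPL36AL. The shares were 38.3% in RPL26 against 34.6% in RPL26L1, and 63.6% in RPL7 against 32.2% in RPL7L1.

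**Figure D4:**
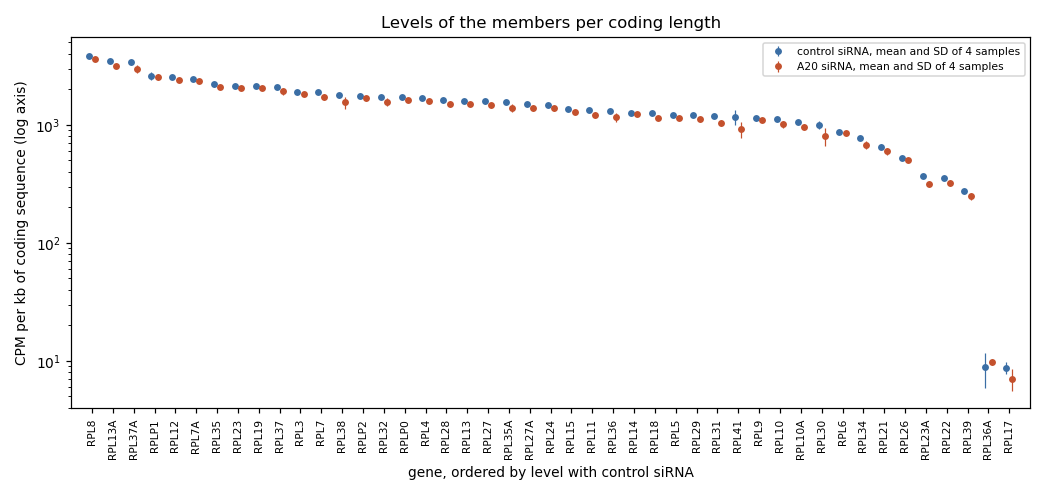
CPM per kilobase of coding sequence (log axis) for the 45 members in the order of their level with control siRNA, as mean and SD of the 4 samples of each group. Most members lie within a few-fold of the median of 1484, while RPL36A and RPL17 lie near 9.

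The members differed in how well a read could be placed. The counts hold reads placed at a single site in the genome, and many of these genes have processed pseudogenes. Over 75-base windows of the reference mRNA, the share with a second exact match in the genome ran from 0.26% in RPL35A to 100% in RPL21, with 93.4% in RPL39, 85.7% in RPL9, 82.8% in RPL17 and 76.9% in RPL6. RPL36A had 47.6%, close to RPL12 with 47.0%, which was among the highest members, and RPL7 with 63.6% and RPL7A with 56.2% were at 1900 and 2444 CPM per coding kilobase. Over the 45 genes it had a rho of -0.42 with the level per coding kilobase and of 0.19 with the fold change. RPL21 still had 5686 to 10516 reads per sample. The 2 lowest members also lie inside readthrough genes: 96.9% of the mRNA bases of RPL17 are exonic in RPL17-C18orf32 and 43.8% of those of RPL36A in RPL36A-HNRNPH2. Both readthrough genes had 0 reads in every sample, while RPL17 had 63 to 168 and RPL36A 57 to 126. RPL17 was at 5.59, 4.27, 4.63 and 4.82 CPM with control siRNA and at 4.64, 4.48, 3.40 and 2.96 CPM with A20 siRNA (-0.29 ± 0.126), and its groups overlapped. The levels of RPL17, RPL36A, RPL21, RPL39 and RPL9 are therefore uncertain. Bases shared with exons of other genes also made up 65.3% of RPL26, 59.0% of RPL38, 53.7% of RPL10, 51.4% of RPL30 (its antisense gene RPL30-AS1) and 17.2% of RPL23A.

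**Figure D5:**
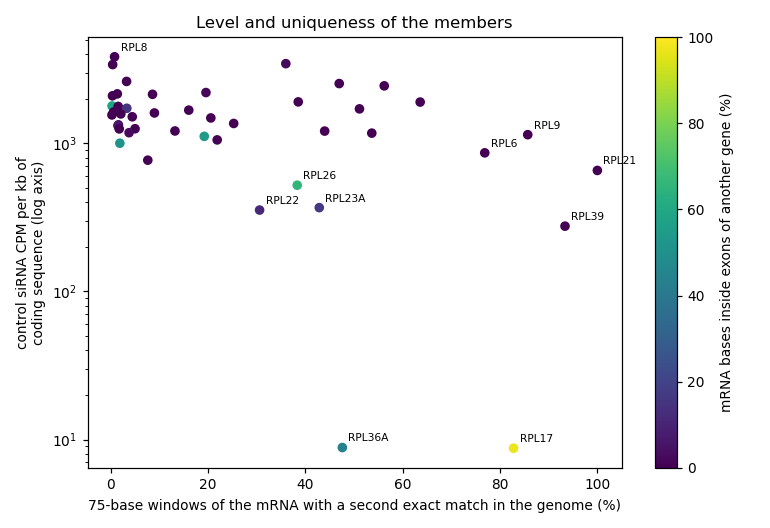
Level with control siRNA in CPM per kilobase of coding sequence (log axis) against the share of 75-base mRNA windows with a second exact match in the genome, for the 45 members, colored by the share of mRNA bases inside exons of another gene. RPL17 and RPL36A stand far below the rest, and RPL21 and RPL39 lie at the right with 100% and 93.4%.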

How the data were processed

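RNAseq was analysed from 8 samples, grouped and numbered by their labels. The authors trimmed reads with Trimmomatic, mapped them with STAR to GRCh38.p7 and a GENCODE annotation, and deposited raw counts of uniquely mapped reads per gene. Release and strand setting are not given in the sources used here. Of 57992 genes, 29238 had no count. At these depths 3 counts correspond to 0.0875 to 0.141 CPM (counting error only).

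The analysis used edgeR 4.0.16 (R 4.3.3): filterByExpr with a minimum count of 10 (13412 genes kept), TMM, the quasi-likelihood test with group as the only term, and Benjamini-Hochberg adjustment over all genes with a threshold of 0.05. CPM use TMM-scaled library sizes. SEs came from the log2 fold change and F statistic. Alternatives were RLE, other filters, DESeq2 1.42.0, limma-voom (limma 3.58.1), the replicate block, loess corrections (span 0.5) and leaving samples out. On simulated data for this comparison (13412 genes) the test recovered 63.2% of genes with a log2 change of 0.2, 85.9% at 0.5 and 92.3% at 1, and 4.82% of its calls were false. Each gene was drawn independently, without the trends with coding length of the real libraries, so these rates need not hold for the real data.

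Symbols, lengths and coordinates came from GENCODE release 44 on GRCh38, by Ensembl identifier without version (56948 matched), so coordinates are those of the later release. The 75-base windows were compared with the 25 primary chromosomes. All members are named. Full values were set for called members, the 5 at either end of the fold changes and levels, the 5S rRNA and stalk proteins and the paralogs. The members and lists were chosen with earlier results of these data known. Some listed genes that are not members are not reported here.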

Additional observations from a re-analysis of the deposited data

Results flagged for a closer look

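In 94 groups of 4 samples, 6 had a sample standing apart from the other 3 beyond Dixon's 95% critical value (gap over range), where chance gives about 4.7. With control siRNA, 1 sample was high in RPL23 (950.8 CPM, the others 888.2 to 897.1), RPL28 (717.1, the others 647.7 to 657.6) and RPL36 (441.3, the others 402.7 to 407.1), in each case replicate 4, which was the highest sample in 41 of 45 members. RPL36A was high in control siRNA replicate 1 (4.191 CPM, the others 2.231 to 2.495). With A20 siRNA, RPL9 was high in replicate 2 (670.4 CPM, the others 618.5 to 625.8), and TNFAIP3 was lowest in 1 sample (3.008 CPM, the others 3.399 to 3.47).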

How the results depend on the processing

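The number of members called lower, 8, was 37 without a low-count filter, 24 with the replicate block, 24 with the length correction, 25 with length and GC, 31 with the block, length and GC together, and 14 with coding length. It ran from 1 to 36 with 1 sample left out, and was 0 without A20 siRNA replicates 3 and 4. The number called higher ran from 0 to 1 with 1 sample left out. Over all genes 167 calls became 624, 474, 366, 365 and 690 under the same first 5 settings, 226 with coding length, 12 to 997 with 1 sample left out and 9 without both A20 siRNA replicates. Among these, the split of 82 lower and 85 higher became 260 and 106 with the length correction. The members' median moved to -0.056 without both A20 siRNA replicates and otherwise lay between -0.141 and -0.079. Assembly factors moved from -0.004 to -0.021 (length), -0.020 (length and GC, with or without the block) and -0.017 (coding length). The fold change of RPLP1 ran from -0.08 to 0.01 with 1 sample left out, and its sign reversed to 0.002 (coding length), 0.007 (without control siRNA replicate 4) and 0.011 (without both A20 siRNA replicates). Of the 10 highest members per mRNA kilobase 6 were shared with the order per coding kilobase, and 7 with that per window of a single match. DESeq2 gave no adjusted p for TNFAIP3. The coding length settings and the joint omission of A20 siRNA replicates 3 and 4 were chosen after seeing the data. In their deviations from the group means, same-numbered samples correlated at 0.105, 0.048, 0.063 and -0.023. The A20 siRNA sample that correlated best with control siRNA replicates 1, 2, 3 and 4 was replicate 1, 2, 3 and 2. These values do not settle whether the samples were paired. The labels do not state a pairing, so the main fit used none, and the block's calls are given here only. The causes were not tested. Among the members RPL17 and RPL36A had the fewest reads, 57 to 168 per sample, and the largest SEs of the fold change, 0.126 and 0.164.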
